A study of Mus musculus with 4 samples.

Results

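The mRNAs of 10 Sox transcription factors, Sox1, Sox2, Sox3, Sox21, Sox4, Sox11, Sox5, Sox6, Sox8 and Sox9, were read in newborn mouse brain. They were found as the non-control probes whose RefSeq accession on the array belongs to one of these genes, which gave 15 probes on 24 spots, of 55681 probes on 59305 non-control spots and of 20660 genes named in all. All 15 probes, and so all 10 genes, were well above background on all 4 arrays, a call made by the scanner software from the spot and its local background.

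The data hold 4 pools of whole brain RNA from C57BL/6J offspring at postnatal day 1, each hybridized to 1 one-color array, whose spots glow in proportion to the labeled target they bind. The Sham pools, 1 of each sex, held 2 offspring from each of 5 dams that had received 25 μL of vehicle into the trachea. The TiO2-H pools, likewise 1 of each sex, held 2 offspring from each of 6 dams given 25 μL of a suspension of titanium dioxide nanoparticles (TiO2-NP) at 4 μg/μL, or 100 μg per dam. The exposure is placed at gestational day 10.5 in the treatment protocol and at day 14 in the sample labels. The paper's first experiment had 5 Sham dams and 6 TiO2-H dams in all. By these counts, the male and female pools of an exposure came from the same dams. Each group is thus 1 pooled array, and neither the spread between litters nor that between offspring is visible in these data. Where 4 values are given in a row, they stand for the male and female Sham arrays and then for the arrays labelled male and female of TiO2-H.

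Sox proteins bind DNA through an HMG box, a domain shared with the sex-determining factor Sry, at short sequences such as ACAAAG. In the developing brain the SoxB1 factors (Sox1, Sox2, Sox3) keep neural progenitors undifferentiated, and the SoxB2 factor Sox21 counteracts them. SoxC factors (Sox4, Sox11) turn on genes of young neurons, SoxD factors (Sox5, Sox6) shape the production of deep-layer neurons, interneurons and oligodendrocytes, and SoxE factors (Sox8, Sox9) act in glial progenitors and glia.

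Sequence just upstream of the start site is shown for 3 of the genes: Sox2, the best known factor of neural progenitors, and the pair of neuronal factors Sox4 and Sox11, whose probes had the lowest p-values among the Sox probes. RefSeq (GRCm38.p6) lists such stretches of 250 bases for 8 of the 10 genes, 13 stretches in all. The stretches were chr3:34649745-34649994 on the plus strand for Sox2, chr13:28953700-28953949 on the minus strand for Sox4 and chr12:27342719-27342968 on the minus strand for Sox11. They are written 5′ to 3′ in the direction of transcription, with CpG dinucleotides, the sites of DNA methylation, in capitals.
Sox2: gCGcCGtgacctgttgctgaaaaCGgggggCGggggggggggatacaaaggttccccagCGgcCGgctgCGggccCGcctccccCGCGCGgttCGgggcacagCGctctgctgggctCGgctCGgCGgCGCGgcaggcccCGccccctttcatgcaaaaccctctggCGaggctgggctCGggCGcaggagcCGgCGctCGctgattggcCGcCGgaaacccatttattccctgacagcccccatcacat
Sox4: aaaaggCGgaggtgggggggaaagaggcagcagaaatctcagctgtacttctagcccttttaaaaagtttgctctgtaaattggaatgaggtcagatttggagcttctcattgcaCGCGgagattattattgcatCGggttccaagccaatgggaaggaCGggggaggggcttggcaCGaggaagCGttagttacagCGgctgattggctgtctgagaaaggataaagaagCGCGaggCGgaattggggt
Sox11: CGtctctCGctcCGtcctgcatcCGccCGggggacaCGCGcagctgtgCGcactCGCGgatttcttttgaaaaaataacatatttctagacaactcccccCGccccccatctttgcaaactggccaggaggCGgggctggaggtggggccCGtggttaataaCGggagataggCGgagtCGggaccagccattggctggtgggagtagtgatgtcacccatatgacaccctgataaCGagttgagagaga
The stretches hold 27 CpG for Sox2, 11 for Sox4 and 17 for Sox11, against a median of 6 over 32841 stretches of 27018 genes. Sox1 had 29 CpG, Sox8 had 18 and Sox21 had 17. The single stretch of Sox5 had 3, and the 6 alternative starts of Sox6 had between 1 and 10. Among short motifs counted on both strands, CCAAT was present 4 times upstream of Sox4 and once each upstream of Sox2 and Sox11, and was found in 6 of the 13 Sox stretches and in 33.9% of all stretches. GGGCGG was present 2 times upstream of both Sox2 and Sox11 and not upstream of Sox4 (5 of 13 stretches, 32.7% of all). ACAAAG was present once upstream of Sox2 (6 of 13 stretches, 16.5% of all), 5 of these 6 stretches being starts of Sox6. These are matches of letters only.

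The array label of each sex was set against sex-linked RNAs, because a direction within a sex rests on it. Offspring had been sexed from tail DNA. Xist, which coats the silenced X chromosome in female cells, had processed signals of 17.9, 276, 347 and 5.36. The Y-linked Eif2s3y had 3519, 419, 6.40 and 4345. Both go against the sex labels of the TiO2-H arrays, which are therefore named by their labels, and Eif2s3y was also read on the Sham female array. The 4 arrays shared 1 slide, on which the exposures occupied different rows, so that slide row and exposure cannot be told apart. The share of spots well above background ranged from 56.2% to 61.2%, and no spot was saturated. All 10 mRNAs of differentiating neurons that were examined were well above background on all 4 arrays, among them Tubb3, the neuronal tubulin.

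No Sox mRNA differed by the study's thresholds of 1.5-fold and 0.67-fold in either labelled sex. Signals were expressed as log2 of the processed signal minus log2 of the array's 75th percentile, called the scaled signal here, and each difference below is a difference of this quantity. On the arrays labelled male, the ratio of TiO2-H to Sham over the 15 probes ran from 0.887 (the dimmer Sox4 probe) to 1.36 (Sox6), and 0 probes passed a threshold. Of all 33327 probes compared there, 4.08% reached 1.5-fold and 3.28% reached 0.67-fold or less. On the arrays labelled female the ratios ran from 0.850 (Sox8) to 1.17 (the dimmer Sox5 probe), again with 0 probes past a threshold, against 2.65% above and 3.31% below of 34065 probes. Within a sex there was 1 array per group, and no p-value was computed.

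With both TiO2-H arrays set against both Sham arrays in limma, a linear model with a shared estimate of the spread across probes, 0 of the 15 Sox probes had an adjusted p under 0.05. Neither did any of the 35626 probes tested (0.0%), so the result does not set the Sox genes apart. The lowest adjusted p was 0.352 among the Sox probes and 0.311 among all probes. At an unadjusted p under 0.05, limma found 1 Sox probe higher (the brighter Sox11 probe) and 1 lower (the dimmer Sox4 probe), where 8.56% of all probes were higher and 5.39% lower. With 2 arrays per exposure, the smallest two-sided p of an exact permutation test is 0.33.

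Both TiO2-H arrays lay above both Sham arrays at 5 of the 15 Sox probes and below them at 3. Over all probes tested, 26.3% lay above and 26.9% below, so these counts are close to the background. Without scaling to the 75th percentile every difference is higher by 0.11, so that small negative ones turn positive, and the counts were 9 above and 0 below (53.1% and 8.72% of all probes). The median log2 difference was 0.05 over the Sox probes and 0.00 over all probes. Its median size without regard to sign was 0.08 for the Sox probes and 0.11 for all probes. Array signals of bulk tissue cannot tell whether a pool had less of an mRNA per cell or fewer of the cells that make it, and this holds for each value below.

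**Figure D1:**
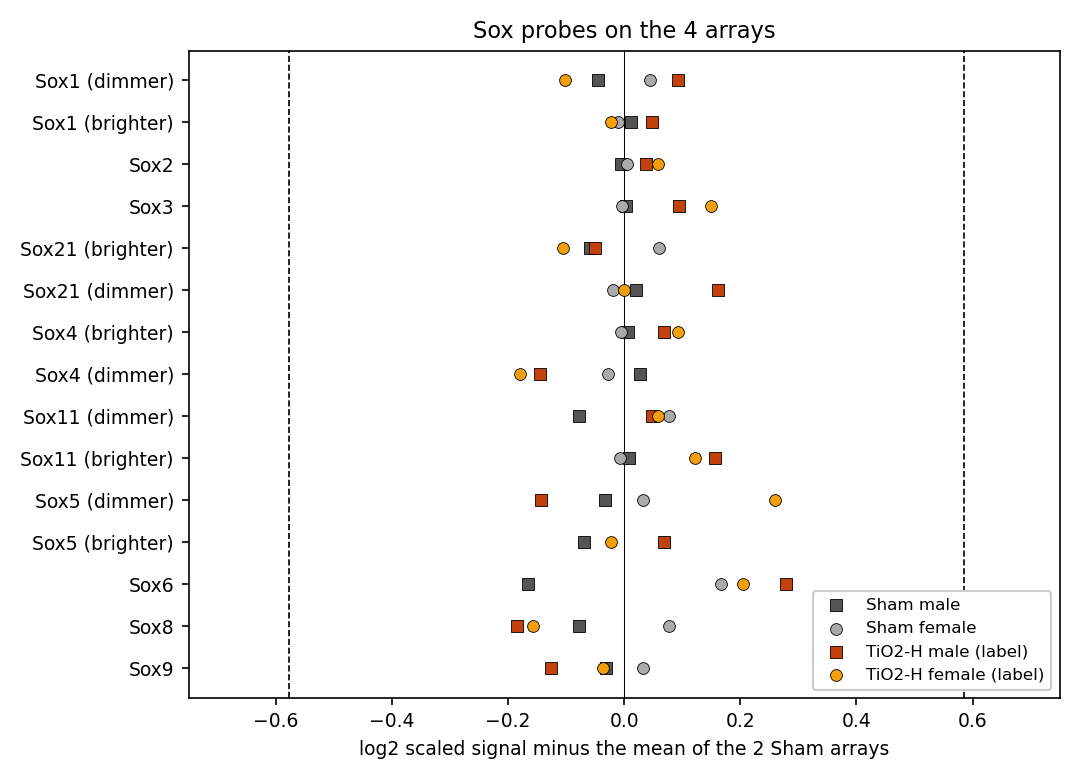
Scaled log2 signal of each of the 15 Sox probes on the 4 arrays, minus the mean of the 2 Sham arrays (x axis, log2 units), with 1 row per probe and brighter or dimmer marking the 2 probes of a gene. The dashed lines stand at 0.67-fold and 1.5-fold, and every point lies between them, the widest spread being that of Sox6 and the dimmer Sox5 probe.

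Among the SoxB1 factors, which hold neural cells in the progenitor state, Sox3 and Sox2 were read slightly higher on both TiO2-H arrays, and Sox1 was not. Sox2 (NM_011443) had scaled signals of 1.16, 1.17, 1.20 and 1.22. The exposures did not overlap, but the whole range over 4 arrays was small. The limma difference was 0.05 (SE 0.041, 95% interval -0.08 to 0.17, adjusted p = 0.597), which on the linear scale allows ratios from 0.947 to 1.13.

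Sox3 (NM_009237), the X-linked member of the group, had scaled signals of 1.32, 1.31, 1.41 and 1.46. Both TiO2-H arrays were above both Sham arrays, and the 2 Sham arrays were nearly equal. The difference was 0.12 (SE 0.046, 95% interval -0.02 to 0.26, limma adjusted p = 0.376), or 1.09-fold.

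Sox1 (NM_009233), the SoxB1 factor most restricted to neural tissue, was read by a pair of probes. The brighter one had scaled signals of 1.28, 1.26, 1.32 and 1.25, and the exposures overlapped. Its difference was 0.01 (SE 0.050, 95% interval -0.14 to 0.16). The dimmer probe, at -2.38, -2.29, -2.24 and -2.44, likewise overlapped, and its interval was wider, from -0.29 to 0.28. Its values on the TiO2-H arrays were the highest and the lowest of the 4.

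Sox21 (NM_177753), which opposes the SoxB1 factors and promotes exit from the progenitor state, gave overlapping exposures with both probes. The brighter probe had scaled signals of -1.06, -0.94, -1.05 and -1.11. The dimmer probe had -1.20, -1.24, -1.06 and -1.22. The differences had opposite signs, -0.08 (95% interval -0.28 to 0.12) and 0.08 (95% interval -0.15 to 0.31), and neither interval excludes 0.

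The SoxC genes gave the 2 lowest p-values of the family, in opposite directions. Sox11 (NM_009234), which activates genes of newly formed neurons, had scaled signals at its brighter probe of 3.87, 3.85, 4.01 and 3.98. Both TiO2-H arrays were higher, and the arrays of each exposure lay close together. The difference was 0.14 (SE 0.043, 95% interval 0.01 to 0.27, limma adjusted p = 0.355), a ratio of 1.101. The dimmer Sox11 probe had 3.53, 3.68, 3.65 and 3.67, so that only the Sham male array stood lower, and its difference was 0.05 (SE 0.073, 95% interval -0.17 to 0.28).

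Sox4 (NM_009238), the other SoxC factor of the neuronal program, had a brighter probe with scaled signals of 3.78, 3.77, 3.84 and 3.86. At its dimmer probe the order was turned, with 2.51 and 2.46 on the Sham arrays and 2.34 and 2.31 on the TiO2-H arrays. Neither probe overlapped between exposures, and they lay on opposite sides. The brighter probe differed by 0.08 (SE 0.042, 95% interval -0.05 to 0.21, limma adjusted p = 0.447) and the dimmer one by -0.16 (SE 0.048, 95% interval -0.31 to -0.02, adjusted p = 0.352). Sox4 as a gene therefore has no direction that both of its probes share.

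The ratio of the brighter to the dimmer probe within an array is unaffected by scaling an array by a constant. This ratio was examined after the values had been seen. For Sox4 its log2 was 1.26, 1.31, 1.499 and 1.56, higher on both TiO2-H arrays. The difference was 0.24 (SE 0.058, 95% interval 0.08 to 0.40), and the limma adjusted p over 3453 accessions with 2 or more probes was 0.424. Of these accessions, 13.4% had a difference at least as large in size, and 44.9% did not overlap between exposures, as did 2 of the 5 Sox genes with a pair of probes, Sox4 and Sox21. For Sox21 the log2 ratio was 0.14 and 0.30 on the Sham arrays and 0.01 and 0.12 on the TiO2-H arrays, a difference of -0.16 (95% interval -0.39 to 0.08, limma adjusted p = 0.572). The ratios of Sox1, Sox11 and Sox5 overlapped, with differences of 0.02, 0.09 and -0.03. The files do not say which part of each transcript a probe reads.

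**Figure D2:**
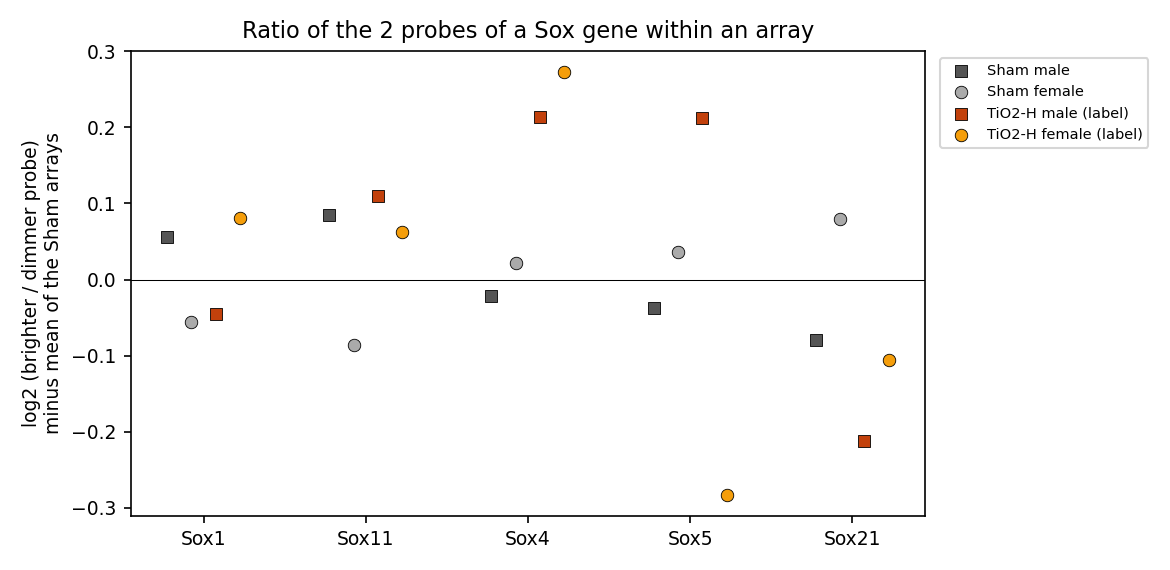
Log2 ratio of the brighter to the dimmer probe of a gene within each array, minus the mean of the 2 Sham arrays (y axis, log2 units), for the 5 Sox genes with a pair of probes. For Sox4 both TiO2-H arrays lie above both Sham arrays, for Sox21 both lie below, and for Sox5 the 2 TiO2-H arrays lie on opposite sides.

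Sox5 (NM_011444), a SoxD factor that controls the timing of deep-layer cortical neurons, was read by a very bright and a very dim probe. The bright probe had scaled signals of 4.80, 4.94, 4.94 and 4.85, with overlap. Its difference was 0.02 (SE 0.077, 95% interval -0.21 to 0.26). The dim probe had processed signals of 45.7, 46.9, 45.3 and 60.1, where the lowest signal well above background on an array was between 23.3 and 31.7. Only the array labelled TiO2-H female stood out there, and the interval of the difference, -0.44 to 0.56, was the widest of the 15 probes.

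Sox6 (NM_011445), the SoxD factor of interneurons and progenitors, had the largest difference of the family, but it turned on the Sham male array. Its scaled signals were -3.09, -2.75, -2.64 and -2.72. The Sham male array was low and the Sham female array lay close to both TiO2-H arrays. The difference was 0.24 (SE 0.14, 95% interval -0.18 to 0.67, limma adjusted p = 0.477), while the 2 Sham arrays differed from each other by 0.33. Without the Sham male array it was 0.07 and without the Sham female array 0.41. The upper bound of its ratio, 1.59, was the only bound of a Sox probe beyond a fold threshold.

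The SoxE factors were read slightly lower on the TiO2-H arrays, although Sox9 turned to 0.034 without scaling. Sox8 (NM_011447), which acts in oligodendrocyte development, had scaled signals of -0.98, -0.83, -1.09 and -1.06. Both TiO2-H arrays were lower, and the Sham male array lay closer to them than to the Sham female array. The difference was -0.17 (SE 0.073, 95% interval -0.39 to 0.05, limma adjusted p = 0.401), a ratio of 0.889. Without the Sham female array it was -0.09 and without the Sham male array -0.25, and it was -0.06 without scaling and -0.03 after normexp background correction of the median signals and quantile normalization.

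Sox9 (NM_011448), which starts the glial program in neural progenitors and marks astrocytes, was the only member spotted 10 times on each array. The spread between spots can therefore be read directly. Processed signals of single spots ran from 1251 to 1532 for Sham male and from 1309 to 1491 for Sham female. They ran from 1239 to 1445 on the array labelled TiO2-H male and from 1384 to 1526 on that labelled female, where 8 spots were used. The spots of all 4 arrays overlapped widely. The SD between spots on the log2 scale was 0.0999, 0.061, 0.078 and 0.045 in that order, against a median of 0.064 to 0.067 over 399 probes spotted 10 times.

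The mean scaled signal of Sox9 was 0.74, 0.80, 0.64 and 0.73. Before rounding, both TiO2-H arrays were below both Sham arrays, but Sham male and the array labelled TiO2-H female were separated by far less than the SD between spots. With the 2 spots kept that the software had marked as outliers on the array labelled TiO2-H female, the exposures overlapped. The same 2 positions gave the highest spots on both Sham arrays (0.918 and 0.898 for Sham male, 0.894 and 0.907 for Sham female). They were used on the other arrays, so the means do not rest on the same spots. The difference was -0.08 (SE 0.059, 95% interval -0.26 to 0.10, limma adjusted p = 0.541), and ran from -0.13 without the array labelled TiO2-H female to -0.04 without that labelled male. Differences of the size seen in most Sox probes, with a median of 0.08, are thus about as large as the SD between Sox9 spots on 1 array. That SD includes differences between positions that the arrays share, so it is not the error of 1 spot alone.

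**Figure D3:**
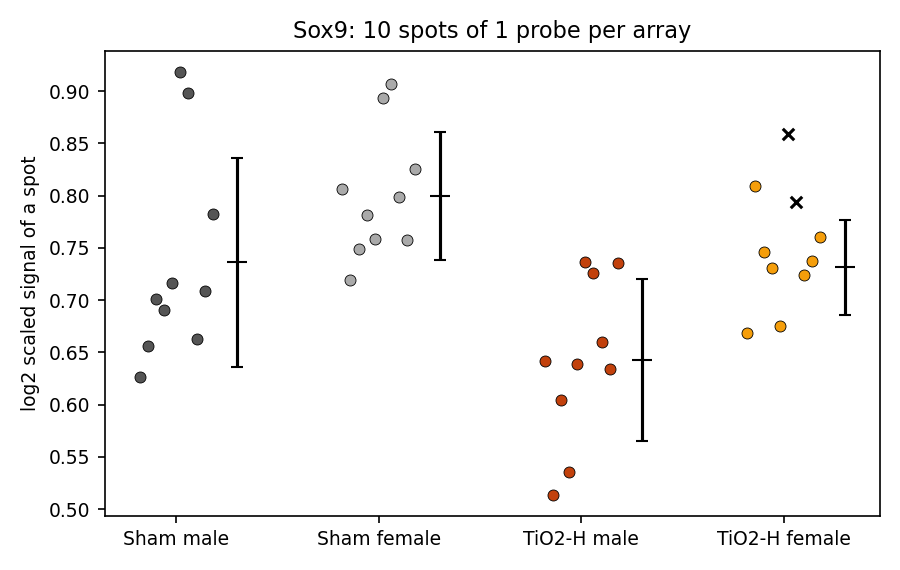
Scaled log2 signal of every spot of the Sox9 probe on the 4 arrays (y axis, log2 units), with the mean and SD of the used spots as bars and the 2 outlier spots as crosses. The array labelled TiO2-H male has the lowest mean, 0.64, and the Sham female array the highest, 0.80, with spots of every array overlapping those of the others.

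Over all 15 probes, the 95% intervals allowed ratios of TiO2-H to Sham between 0.735 and 1.59, with a median interval width of 0.40 on the log2 scale. At 6 probes the difference between the exposures was larger than both differences within an exposure, and at the others it was not. The same count was not made over all probes, so whether 6 of 15 is unusual is not known. The median size of the difference between the 2 Sham arrays was 0.06, and that between the 2 TiO2-H arrays 0.05.

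**Figure D4:**
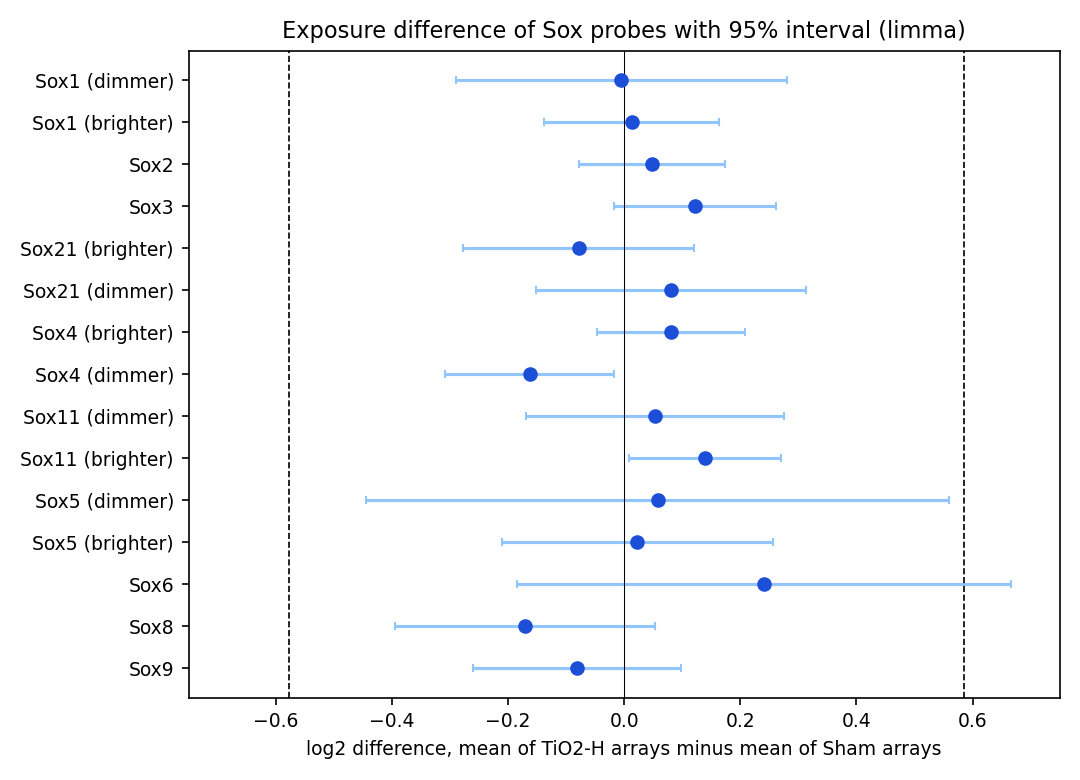
Log2 difference of the 15 Sox probes, mean of the 2 TiO2-H arrays minus mean of the 2 Sham arrays (x axis, log2 units), with 95% intervals from limma as bars and the fold thresholds as dashed lines. The intervals of the brighter Sox11 probe and the dimmer Sox4 probe leave out 0, on opposite sides, before adjustment for the number of probes.

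At the level of genes, each read by its brightest probe, 5 of the 10 Sox genes (Sox2, Sox3, Sox4, Sox11 and Sox6) lay higher on both TiO2-H arrays and 2 (Sox8 and Sox9) lower. Sox4 counts as higher only by its brighter probe, since its dimmer probe lay lower on both TiO2-H arrays. Over 14636 genes, 30.2% lay higher and 26.6% lower. The lists of related genes below were read in the same way, and 0 of their 87 measured genes had an adjusted p under 0.05 in limma, and 15 (17.2%) had an unadjusted p under 0.05, against 12.9% of the 14636 genes.

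Of 10 other Sox genes, 7 were well above background on all 4 arrays, and only Sox7 did not overlap between exposures. Sox7, a factor of endothelial cells, had processed signals of 85.1, 91.5, 133 and 119. Its log2 difference was 0.40 (95% interval 0.11 to 0.69, limma adjusted p = 0.351), larger than that of any of the 10 Sox genes. Sox17 and Sox18, also endothelial, differed by -0.09 and -0.02 with overlap, and Sox10, the factor of the oligodendrocyte lineage and neural crest, by -0.06 with overlap. Among 4 endothelial markers, 2 were higher on both TiO2-H arrays, Flt1 by 0.31 and Cldn5 by 0.17. Pecam1 and Cdh5 overlapped, at 0.12 and 0.10. The summed processed signal of the 4 ranged from 6075 to 6419 on the Sham arrays and from 7651 to 7682 on the TiO2-H arrays. These sums are mostly Cldn5 and are not scaled between arrays. The 75th percentile of the arrays was itself 810, 795, 867 and 871. The part of endothelial cells in the Sox7 value was not tested.

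Of 8 noncoding RNAs of Sox loci, 1 had a named probe well above background on all arrays. Sox1ot, transcribed across the Sox1 locus, had processed signals of 480, 502, 576 and 609, higher on both TiO2-H arrays, with a log2 difference of 0.16 (95% interval -0.03 to 0.34). Sox2ot, within which Sox2 lies, had no such probe. Whether the RNAs without a value were dim or had no named probe on the array was not recorded.

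POU factors pair with SoxB1 proteins on DNA, and the 4 of 5 that were measured all overlapped between exposures. Their differences ran from -0.04 (Pou3f2) to 0.03 (Pou2f1). Of 10 progenitor genes tied to SoxB1 activity, 4 were higher on both TiO2-H arrays and 2 lower, with a median of -0.03. Notch1, the receptor that keeps progenitors from differentiating, had processed signals of 99.9, 114, 151 and 189 and a log2 difference of 0.55 (95% interval 0.07 to 1.03, limma adjusted p = 0.351), and its ratio passed 1.5-fold on the arrays labelled female. Fabp7, the fatty acid binding protein of radial glia, differed by 0.18 and Msi1, an RNA-binding protein of progenitors, by -0.12. Nes and Hes5 differed by 0.08 and 0.05, and Pax6 by -0.08. The rest of the list was below 0 with overlap: Hes1 at -0.16, Lhx2 at -0.06, Prom1 at -0.05 and Vim at -0.01.

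Proneural and basal progenitor genes, which act after the SoxB1 step, gave 1 higher and 1 lower of 7 measured, with a median of -0.02. The lower one was Eomes, a factor of basal progenitors, at -0.08. Of 10 genes of young neurons, the stage at which SoxC factors act, 6 were higher on both TiO2-H arrays and 2 lower, with a median of 0.10 against 0.01 for all genes. Map2, a dendritic microtubule protein, had processed signals of 8996, 9008, 10883 and 10956, a difference of 0.16 (95% interval 0.04 to 0.29), and Dcx, the microtubule protein of migrating neurons, differed by 0.15. Tubb3 went the other way, at -0.05. No value of this list had a limma adjusted p below 0.351.

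Of 11 genes of deep-layer neurons and interneurons, the cells in which SoxD factors act, 5 were higher on both TiO2-H arrays and 0 lower, with a median of 0.06. Cux2 and Foxp2, both transcription factors of cortical neurons, differed by 0.22 and 0.20. Of 13 glial genes, the field of the SoxE factors, 7 were higher and 2 lower, with a median of 0.05. Nfia, a glial transcription factor that acts with Sox9, differed by 0.23 and Olig1, a factor of oligodendrocyte precursors, by 0.21. The 2 lower genes were Gfap, the astrocyte filament, at -0.10 and Aldh1l1 at -0.09. Olig2, Nfix, Aqp4 and Mbp overlapped, at 0.01, -0.07, 0.05 and 0.05. Sox8, Sox9 and Sox10 themselves were below 0, Sox10 with overlap.

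Genes of cells other than neural ones were read beside these. Hba-a1 and Hbb-bt, the globins of blood, were lower on both TiO2-H arrays, by -0.25 and -0.27, as was Alas2 by -0.17, so that all 3 blood genes measured of 5 were lower. Their summed processed signal, likewise not scaled, ranged from 82420 to 86329 on the Sham arrays and from 76410 to 76530 on the TiO2-H arrays. Microglial genes gave 4 higher and 1 lower of 5, with a median of 0.15. P2ry12 had the largest difference, 0.36, at low processed signals of 141, 115, 180 and 176, and C1qa was the lower one, at -0.15. Meningeal genes gave 4 of 4 higher, with a median of 0.11. Of all 14636 genes, 30.2% were higher and 26.6% lower. Choroid plexus genes gave 1 higher and 1 lower of 4 (Clic6, 0.02, and Ttr, -0.06), and the 4 genes of olfactory tissue and cartilage all overlapped. Acan had processed signals of 139.6, 70.2, 84.6 and 91.7, with only the Sham male array high, and its difference was -0.82 on the arrays labelled male, past 0.67-fold, and 0.26 on those labelled female. Krt5 was at -0.17 over the 4 arrays. The Sox differences lie within the range of these markers, and the part of other cell types in them was not tested.

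**Figure D5:**
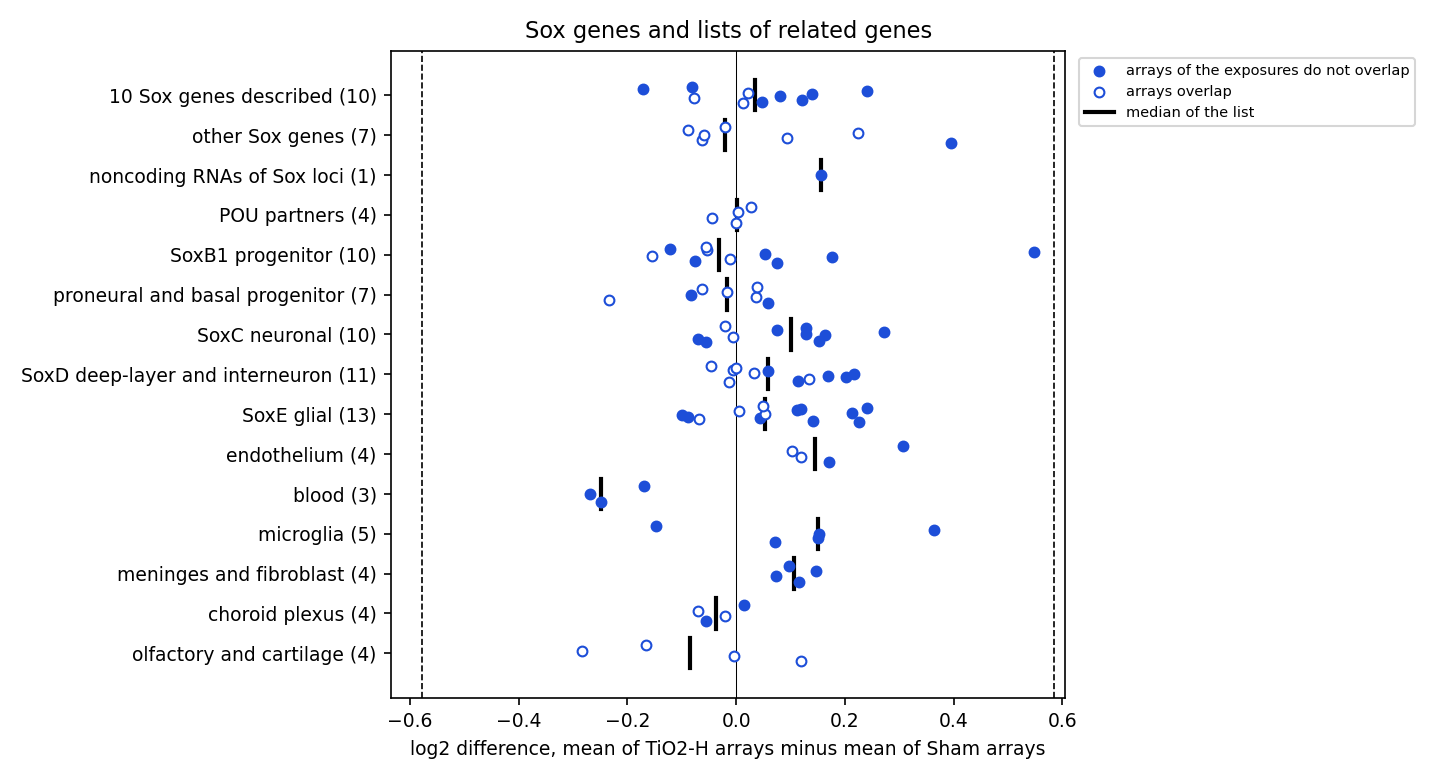
Log2 difference, mean of the 2 TiO2-H arrays minus mean of the 2 Sham arrays (x axis, log2 units), of the 10 Sox genes and of the measured genes in each list, 1 point per gene with the number measured in brackets. Filled points are genes whose exposures do not overlap, bars are medians and dashed lines the fold thresholds. The Sox genes lie between -0.17 and 0.24, and the blood list has the lowest median, -0.25.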

How the data were processed

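Gene expression in 4 pooled brain RNA samples was measured on SurePrint G3 Mouse GE 8x60K arrays (design 028005, 62976 spots). The authors deposited scanner output made with Agilent Feature Extraction 10.10.1.1, and its processed signal is an intensity with local background and spatial trends removed and no scaling between arrays. The deposited table of values held the same intensity for 59305 of 59305 non-control spots. The quality calls of single spots (well above background, outlier) were used as deposited.

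Spots marked as outliers (138 to 181 per array) were left out, log2 signals were reduced by log2 of the array's 75th percentile (795 to 871), and spots of a probe were averaged. Probes dim on every array compared were left out, and a dim signal was raised to the array's lowest signal well above background if it lay under it. No Sox probe needed this floor. Gene symbols came from RefSeq for assembly GRCm38.p6, which names 98.0% of the 21887 NM and NR accessions. The design build is older, so no gene coordinates other than those of the RefSeq stretches are given. Both TiO2-H arrays were compared with both Sham arrays by limma 3.58.1 in R 4.3.3, over all 35626 probes with Benjamini-Hochberg adjustment and without sex as a term. Where a gene is given 1 value, its brightest probe stands for it. By rule at most 3 genes are named per list, those with the largest differences among genes whose exposures do not overlap, or the 2 largest where none is so; some of these are not reported here. Sox10, Sox17, Sox18, Nes, Hes5, Pax6, Hes1, Lhx2, Prom1, Vim, Tubb3 and Gfap were named after their values were seen. So were Pecam1, Cdh5, Aldh1l1, Olig2, Nfix, Aqp4, Mbp and C1qa. The scripts, run in R and in Python 3.11.15 (pandas 2.3.3, numpy 2.4.6), were first tested on simulated data. The members and lists were chosen with earlier results of these data known. The number of arrays limits the precision, and p-values measure only the spread between pools. By the paper's counts, the 2 pools of an exposure share their dams and differ in sex label, so they are not independent replicates of the exposure. Alternatives were other scalings, background corrections, filters, floors and probe rules, pairing of arrays across the sex labels, a threshold of 2-fold, sex as a term, and each array left out in turn. Methylation arrays of the study were not used here.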

Additional observations from a re-analysis of the deposited data

How the results depend on the processing

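No Sox probe passed a fold threshold or had a limma adjusted p under 0.05 under any alternative run that kept every array. The count of 8 probes without overlap ranged from 7 to 9. With the brightest probe of each accession it was 7 of only 10 probes. Without scaling it was 9 above and 0 below, against 5 above and 3 below with scaling. Without scaling the median of all probes moved from 0.00 to 0.11 and all differences moved alike. Unscaled, Sox21 turned to 0.036 and Sox9 to 0.034. With the mean of its probes in place of the brightest, Sox4 turned to -0.041 and Sox21 to 0.0013. Leaving out 1 array moved Sox1 between -0.022 (without TiO2-H male) and 0.048, and Sox5 between -0.046 (without Sham male) and 0.092, with -0.023 without TiO2-H male. These 7 of 130 alternative values of the 10 genes changed sign, none of them from a called value. The Sox4 probe ratio stayed between 0.21 and 0.27 in all alternatives run for it, which were chosen after the values were seen.

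The number of all probes past 1.5-fold or 0.67-fold was 2453 on the arrays labelled male and 2030 on those labelled female. These became 972 and 846 among probes well above background on both arrays, 1374 and 1041 after normexp background correction (offset 50) of the median signals with quantile normalization, 1175 and 1065 at 2-fold and 0.5-fold, and, on the arrays labelled female, 3048 with no floor. Without overlap were 18962 of all probes, and 38790 with no filter. A replicate block could not be fitted, because all 4 arrays carry the same replicate number. With the arrays paired by sex instead, as labelled or crossed (sex as a term), limma gave 0 calls and a lowest Sox adjusted p of 0.492 and 0.531. Of all probes, 4968 had an unadjusted p under 0.05 (2 of them Sox probes), against 8307 without scaling (4 Sox probes), 2982 with no filter and 3200 and 3096 with sex as a term (0 Sox probes in each of the latter 3).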
